A study of Homo sapiens with 4 samples.

Results

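The genes described here encode the EGFR family of growth factor receptors, their ligands and a pair of their inhibitors, 10 in number. They were listed by symbol, namely the receptors EGFR, ERBB2 and ERBB3, the ligands AREG, EREG, TGFA, HBEGF and BTC, and the inhibitors ERRFI1 and LRIG1. Each symbol was matched to 1 gene ID, and the rows of that ID were summed. All 10 were among the 25798 gene IDs of the count and FPKM tables. RNA was sequenced in 4 libraries of SW1990, an established line of human pancreatic adenocarcinoma cells, labelled wild type and grown in medium with serum. In 2 libraries the cells had received 100 nM erianin for 48 h, and in the other 2 an equal concentration of DMSO, the solvent, for 48 h. Erianin is a bibenzyl from Dendrobium orchids that is known to bind tubulin. All values come from 1 line. The labels do not say whether replicates came from separate cultures, so a p-value here reflects the spread among 4 libraries, and this spread may be technical.

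Receptors of the EGFR family are transmembrane tyrosine kinases that act as pairs. A ligand is made as a membrane-bound precursor, is shed by metalloproteases and opens the receptor so that it can pair, after which its phosphorylated tail recruits adaptors that feed the RAS-ERK and PI3K-AKT pathways. ERBB2 binds no known ligand and ERBB3 has little kinase activity of its own, so both work mainly as partners. In pancreatic ductal cancer, EGFR is the target of the kinase inhibitor erlotinib.

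The libraries held 59923935 to 63336545 estimated counts. Of 7 ductal epithelial markers, the keratin genes KRT7, KRT8, KRT18 and KRT19 made up most of a summed level of 6869.47 to 6916.86 FPKM in DMSO and 7109.76 to 7591.4 FPKM in erianin, while EPCAM lay between 1.48 and 3.50 FPKM. Acinar markers (PRSS1 and CPA1, 2 of 3 listed) summed to at most 0.13 FPKM and the blood marker PTPRC reached at most 0.02 FPKM. PECAM1, an endothelial marker, lay between 0.14 and 0.40 FPKM. INS, GCG, CELA3A and CDH5 were not analysed here. The 4 fibroblast markers (COL1A1, COL3A1, DCN, LUM) summed to 4.64 FPKM in DMSO replicate 1 and to between 0.49 and 0.77 FPKM in the other libraries. The part of this in the values of DMSO replicate 1 was not tested. A gene's length and the depth of a library both enter FPKM (fragments per kilobase of transcript, scaled to library depth), so FPKM is used below to set genes beside each other. CPM (counts relative to a library's total after TMM adjustment) is used to set libraries beside each other. In cells taken as a bulk, fewer cells with a transcript and less transcript per cell cannot be told apart.

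The family was present as a strongly expressed inhibitor and ligand over moderate receptor levels. In each of the 4 libraries ERRFI1 had the highest FPKM, followed by AREG and then ERBB2, and ERBB3, LRIG1 and BTC took the last 3 places. EREG, TGFA, HBEGF and EGFR lay between, from 3.63 to 9.22 FPKM, with an order that was not the same in every library. TGFA and HBEGF changed places between the DMSO libraries (6.94 and 6.62 FPKM in replicate 1, 6.37 and 6.41 FPKM in replicate 2), so these neighbours did not differ beyond their spread. ERBB3 lay above LRIG1 in each library, though in DMSO replicate 2 by no more than 1 against 0.99 FPKM. This order holds for the summed rows. With the highest row of each gene in place of the sum, LRIG1 lay above ERBB3 in 3 of 4 libraries (0.99 against 0.76 FPKM in DMSO replicate 2), the exception being DMSO replicate 1 with 0.81 against 0.82 FPKM. By the same measure ERBB2, at 6.3 FPKM, lay below EREG, TGFA and HBEGF in DMSO replicate 1. The highest row of ERBB3, which gave most of its FPKM, had 63 counts at 0.82 FPKM in DMSO replicate 1. Its second row had 42 counts at 0.09 FPKM there, so the deposited values imply that the highest row is much shorter. In counts, LRIG1 exceeded ERBB3 in each library. The place of ERBB3 relative to LRIG1 thus depends on that short row.

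**Figure D1:**
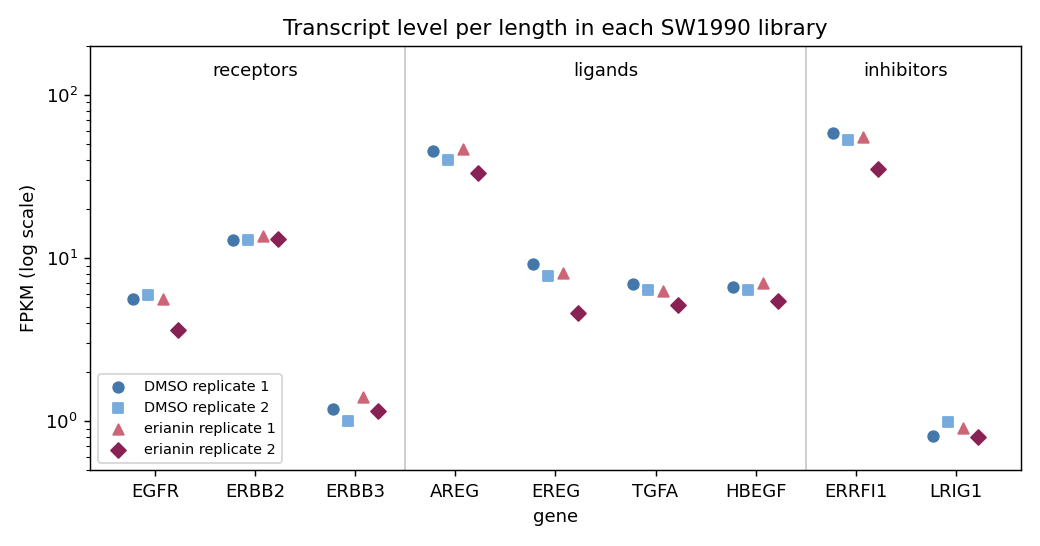
Transcript level of 9 genes in FPKM, on a log axis, with 1 point for each of the 4 libraries. BTC, at 0 FPKM in 3 libraries, cannot be drawn on this axis. ERRFI1 and AREG stand above the rest, from 33.13 to 58.32 FPKM. Erianin replicate 2 gives the lowest point for EGFR, EREG, AREG, TGFA, HBEGF, ERRFI1 and LRIG1. For LRIG1 it is barely the lowest, at 0.80 FPKM against 0.81 FPKM in DMSO replicate 1.

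Among the receptors, EGFR (GRCh38 chromosome 7, 55019021 to 55211628, plus strand, ENSG00000146648) had 5.63 and 5.97 FPKM in the DMSO libraries and 5.58 and 3.63 FPKM in erianin replicates 1 and 2. In CPM it had 60.8 and 64.8 in DMSO and 57.2 and 44.1 in erianin. The groups did not overlap, but erianin replicate 1 lay close to the DMSO libraries and erianin replicate 2 far below them. Of all genes tested, 24.4% had groups that did not overlap with erianin lower. The erianin-to-DMSO log2 fold change was -0.31 ± 0.14 (SE) with a 95% interval from -0.64 to 0.02 (edgeR's quasi-likelihood test, adjusted p = 0.575, unadjusted p = 0.0648). The interval thus spans 0.640 to 1.02 times the DMSO level. Of its 9 rows, 1 held 94.6 to 98.7% of the counts in each library. EGFR-AS1, which lies antisense to it, had 5 counts over all 4 libraries.

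ERBB2 (chromosome 17, 39687914 to 39730426, plus strand, ENSG00000141736) lay on the other side of DMSO, by a smaller amount. It had 63.0 CPM in each of the DMSO libraries and, with erianin, 70.5 CPM in replicate 1 and 73.6 CPM in replicate 2. Both erianin libraries lay above both DMSO libraries, as they did for 21.7% of all genes tested, and here the erianin libraries were close to each other. The log2 fold change was 0.19 ± 0.10 (SE), with a 95% interval from -0.05 to 0.43, and did not pass (edgeR's quasi-likelihood test, adjusted p = 0.576). Per length, ERBB2 was the most abundant of the 3 receptors, with 12.98 and 12.88 FPKM in DMSO and 13.72 and 13.17 FPKM in erianin. It took 64.9 to 66.3% of the summed receptor FPKM in the first 3 libraries and 73.3% in erianin replicate 2. The ratio of ERBB2 to EGFR in FPKM was 2.31 and 2.16 in DMSO, 2.46 in erianin replicate 1 and 3.63 in erianin replicate 2. Of 6 such ratios between these genes, this one had an exact two-sided permutation p of 0.333 (n = 2 each), the smallest that 2 against 2 allows, and 0.5 after Benjamini-Hochberg adjustment.

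The rows behind ERBB2 behaved less evenly than their sum. The count table gives 16 rows for ERBB2 with no transcript names, and 2 of them held 86.8 to 90.9% of its counts. The second of these had 1647 counts in DMSO replicate 1, 1132 in DMSO replicate 2, 4 in erianin replicate 1 and 898 in erianin replicate 2. As a share of the gene's counts that is 39.6% (95% Wilson interval 38.1 to 41.1%), 28.8% (27.4 to 30.3%), 0.0891% (0.0346 to 0.229%) and 22.0% (20.7 to 23.3%). These intervals cover counting error only. The first row had its highest count, 3894, in erianin replicate 1, against 2124, 2440 and 2781 in DMSO replicates 1 and 2 and erianin replicate 2, so the sum of both rows varied only from 3572 to 3898. Counts per FPKM were alike for the rows (337 and 335 in DMSO replicate 1, 320 and 318 in DMSO replicate 2), so the deposited values imply nearly equal lengths for them. With the highest row in place of the sum, the log2 fold change of ERBB2 was 0.65 rather than 0.19. ERBB2 also shares 571 exonic bases with MIEN1 and 194 with PGAP3, both on the opposite strand, and its value is uncertain to that extent, since the strandedness of the counting is not given in the sources used here.

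**Figure D2:**
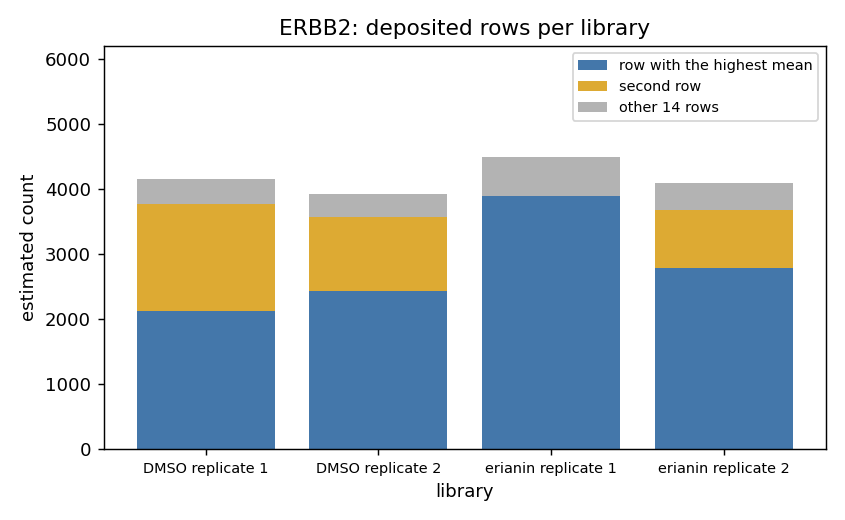
Estimated count of ERBB2 in each library, stacked by deposited row: the row with the highest mean count, the second row and the other 14 rows. The second row is all but missing in erianin replicate 1, at 4 counts, while the stacked totals lie between 3929 and 4492.

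ERBB3 (chromosome 12, 56076799 to 56103505, plus strand, ENSG00000065361), the partner with an impaired kinase, was the least abundant of these receptors. It had 122 and 133 counts in DMSO and 176 and 117 in erianin, or 1.85, 2.13, 2.76 and 2.105 CPM in the same order. The groups overlapped, with the highest value in erianin replicate 1. At this depth the log2 fold change of 0.29 ± 0.30 (SE) had a 95% interval from -0.41 to 0.99 (edgeR's quasi-likelihood test, adjusted p = 0.733), and levels of up to 1.99 times DMSO lay within the interval. ERBB4, the remaining receptor of the family, was not analysed here.

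Among the transcripts of the 5 listed ligands, that of AREG, the gene of amphiregulin, had the highest FPKM in each library. AREG (chromosome 4, 74445134 to 74455009, plus strand, ENSG00000109321) made up 66.0 to 68.5% of the summed FPKM of the 5 ligands. It lies in a cluster of ligand genes on chromosome 4, between EREG, which ends 56.4 kb before it, and BTC, whose nearer end is 289.7 kb beyond it. EREG (74365143 to 74388751, plus strand, ENSG00000124882), the gene of epiregulin, a ligand of EGFR and ERBB4, made up 9.56 to 13.5%. BTC (74744759 to 74794686, minus strand, ENSG00000174808), the gene of betacellulin, had 0 counts in 3 libraries and 4 in DMSO replicate 2. A count of 0 was taken to allow up to 3 counts, or 0.0454 to 0.0540 CPM in the 3 libraries at 0. The 4 counts in DMSO replicate 2 were 0.0641 CPM. So the cluster held a highly expressed gene, a moderately expressed one and one near 0.

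The sequences before the starts of the neighbours AREG and EREG are shown because both genes were well expressed and both had their lowest level in erianin replicate 2. That library was also the lowest for 6 of the 9 genes tested and for 37.3% of all genes, so this trait does not set the pair apart. Whether the sequences bear on it was not tested. The sequences are the 250 bases before the RefSeq start on GRCh38.p14, 5′ to 3′ on the plus strand, with matches to 3 searched motifs in capitals.
EREG, chr4:74364895-74365144: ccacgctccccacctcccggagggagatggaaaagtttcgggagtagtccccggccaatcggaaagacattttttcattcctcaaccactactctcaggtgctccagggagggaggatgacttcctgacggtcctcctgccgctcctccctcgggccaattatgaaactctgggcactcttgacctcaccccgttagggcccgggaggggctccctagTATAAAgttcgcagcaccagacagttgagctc
AREG, chr4:74444886-74445135: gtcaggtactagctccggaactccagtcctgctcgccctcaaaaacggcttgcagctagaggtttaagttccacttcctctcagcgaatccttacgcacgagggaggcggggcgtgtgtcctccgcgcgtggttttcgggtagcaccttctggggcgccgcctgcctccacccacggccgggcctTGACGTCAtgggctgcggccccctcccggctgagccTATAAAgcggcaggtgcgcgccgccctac
The motifs were TGACGTCA, the cAMP response element, which reads the same on both strands, TGANTCA, the AP-1 site, and TATAAA, the TATA box, each searched on both strands. The matches printed do not overlap. Both windows hold TATAAA on the forward strand, from 32 to 27 bases before the start in EREG and from 29 to 24 in AREG. This motif is in 10.7% of the 35116 windows of this length in the table. AREG also holds TGACGTCA, from 65 to 58 bases before its start, which 1.65% of all windows do. TGANTCA, in 6.57% of all windows, is in neither.

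The CPM of AREG was 62.8 and 55.6 with DMSO, against 65.4 and 51.8 with erianin. Its erianin libraries were the highest and the lowest of all 4, so the groups overlapped fully. The log2 fold change was -0.01 ± 0.14 (SE), with a 95% interval from -0.34 to 0.32, and its sign turned with the libraries kept (0.15 without erianin replicate 2, -0.20 without erianin replicate 1). EREG had 47.1 and 39.7 CPM in DMSO, 41.4 in erianin replicate 1 and 26.0 in erianin replicate 2. Only erianin replicate 2 stood apart, and erianin replicate 1 lay between the DMSO libraries. The log2 fold change of -0.36 ± 0.21 (SE) lay farthest below 0 among these genes and did not pass (edgeR's quasi-likelihood test, adjusted p = 0.59, 95% interval -0.86 to 0.13). It was -0.07 without erianin replicate 2. The ratio of AREG to EREG in FPKM was 4.93 and 5.14 in DMSO and 5.75 and 7.16 in erianin (exact permutation p = 0.333, n = 2 each).

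TGFA (chromosome 2, 70447280 to 70554193, minus strand, ENSG00000163235) encodes transforming growth factor alpha, a ligand of EGFR. Its CPM was 30.5 and 28.5 with DMSO and 28.7 and 24.9 with erianin, with overlapping groups and a log2 fold change of -0.14 ± 0.14 (SE). HBEGF (chromosome 5, 140332843 to 140346631, minus strand, ENSG00000113070) encodes the heparin-binding ligand of EGFR and ERBB4. Its CPM was 17.2 and 16.9 with DMSO and 18.8 and 16.3 with erianin, so that the DMSO libraries lay between the erianin ones. Its log2 fold change was 0.04 ± 0.15 (SE), with a 95% interval from -0.31 to 0.39, and was -0.05 with library totals alone. Neither gene passed (edgeR's quasi-likelihood test, adjusted p = 0.73 for TGFA and 0.938 for HBEGF). As shares of the ligand sum, TGFA made up 9.21 to 10.7% and HBEGF 9.71 to 11.3%.

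ERRFI1 (chromosome 1, 8004404 to 8026308, minus strand, ENSG00000116285) encodes MIG6, a cytosolic protein that binds the kinase domain of EGFR family receptors, blocks it and promotes receptor uptake, and that is itself induced by EGFR signalling. It had 198.5 and 182.8 CPM in DMSO, 192.1 in erianin replicate 1 and 134.9 in erianin replicate 2. As with EREG, erianin replicate 1 lay between the DMSO libraries and erianin replicate 2 below all others. The log2 fold change was -0.22 ± 0.16 (SE), with a 95% interval from -0.59 to 0.14 (edgeR's quasi-likelihood test, adjusted p = 0.626), and was 0.01 without erianin replicate 2. In FPKM, ERRFI1 exceeded EGFR by 10.4 and 8.86 times in DMSO and by 9.87 and 9.66 times in erianin. The ratio in the erianin libraries thus lay within the range of the DMSO libraries.

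LRIG1 (chromosome 3, 66378797 to 66501263, minus strand, ENSG00000144749) encodes a transmembrane protein that binds the receptors and promotes their degradation. Its 304 to 375 counts per library corresponded to a CPM of 4.91 and 6.01 with DMSO and of 5.61 and 5.47 with erianin. Both erianin values lay between the DMSO values. The log2 fold change was 0.02 ± 0.22 (SE), with a 95% interval from -0.48 to 0.52, and its sign turned in 6 of 17 alternatives. LRIG1 shares 907 exonic bases with SLC25A26 on the opposite strand, so its value is uncertain in the same way as that of ERBB2.

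Over the family, 9 of the 10 genes passed the filter on low counts and 0 of these 9 passed edgeR's quasi-likelihood test, against 0.041% of the 17090 genes tested. DESeq2 and limma-voom also called 0 of them, against 0.118% and 0% of all genes, and 0 had an unadjusted p under 0.05, against 8.1% of all genes. BTC was not tested. The groups did not overlap for EGFR, lower in erianin, and for ERBB2, higher in erianin, against the 24.4% and 21.7% of all genes given above. The log2 fold changes ran from -0.36 to 0.29 with a median of -0.01, which is also the median over all genes tested. Below 0 lay 5 of the 9, against 51.3% of all genes.

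**Figure D3:**
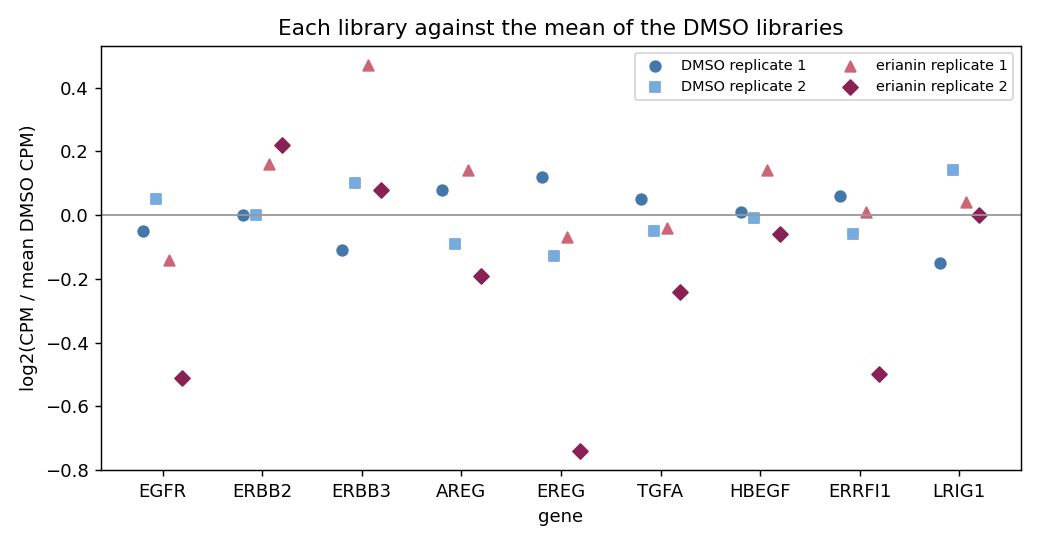
CPM of each gene in each library over the mean of the DMSO libraries, on a log2 scale, with 1 point per library. Erianin replicate 2 lies at -0.51 for EGFR, -0.74 for EREG and -0.50 for ERRFI1, while erianin replicate 1 lies at -0.14, -0.07 and 0.01 for the same genes.

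For several of these genes the spread between the erianin libraries exceeded the difference of their mean from DMSO. Erianin replicate 2 gave the lowest CPM of the 4 libraries for 6 of the 9 genes (EGFR, AREG, EREG, TGFA, HBEGF and ERRFI1), and did so for 37.3% of all genes tested. When erianin replicate 1 was left out, 3 of these genes passed edgeR's test. Their log2 fold changes were then -0.52 for EGFR (adjusted p = 0.0118), -0.75 for EREG (0.0104) and -0.51 for ERRFI1 (0.00683). That fit rests on 1 erianin library, which is assumed to vary like the DMSO libraries, and it called 3166 genes in all, or 17.5% of those tested. When erianin replicate 2 was left out, 0 of the 9 passed, against 0.132% of all genes, and EGFR was at -0.13.

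**Figure D4:**
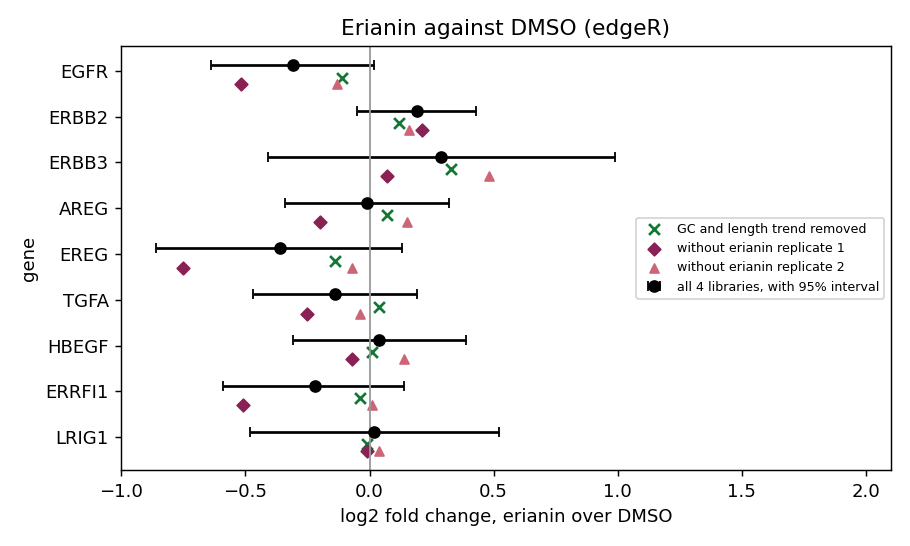
Log2 fold change of erianin over DMSO from edgeR for 9 genes. Black points with bars give the fit on all 4 libraries with its 95% interval, crosses the fit with the GC and length trend removed, and diamonds and triangles the fits without erianin replicate 1 and without erianin replicate 2. All 9 intervals include 0, and the diamonds of EGFR, EREG and ERRFI1 lie from -0.75 to -0.51.

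The GC content of the longest annotated transcript differs widely within the family, from 36.1% in EREG to 57.5% in ERBB2. Fold changes in these libraries rose along it: genes within 2 percentage points of EREG had a median log2 fold change of -0.25, and those near ERBB2 one of 0.13. For ERRFI1, at 43.4% GC, the log2 fold change of -0.22 equalled the median of 1092 genes of like GC content. For TGFA, at 45.9%, it was -0.14 in both. EREG, at -0.36, had 33.9% of 383 genes of like GC content below it, and EGFR, at -0.31 and 47.5% GC, had 17.5% of 1141 genes below it. ERBB2, at 0.19, lay above 72.5% of 1226 genes of like GC content. ERBB3, at 0.29 and 52.0% GC, lay farthest from the middle, above 97.3% of 1165 such genes, with the low counts and wide interval given above. At 1.85 to 2.76 CPM, ERBB3 lay below the level required of those genes. Its rank among more highly expressed genes thus cannot show that its fold change was unusual. With each library's trend along GC content and length taken out, the log2 fold change was -0.11 for EGFR, -0.14 for EREG, -0.04 for ERRFI1 and 0.12 for ERBB2, that of ERBB3 was 0.33, and 0 of the 9 genes passed. Between the erianin libraries, the log2 ratio of replicate 2 to replicate 1 was -0.67 for EREG, -0.51 for ERRFI1 and -0.37 for EGFR, where genes of like GC content had medians of -0.25, -0.27 and -0.13.

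**Figure D5:**
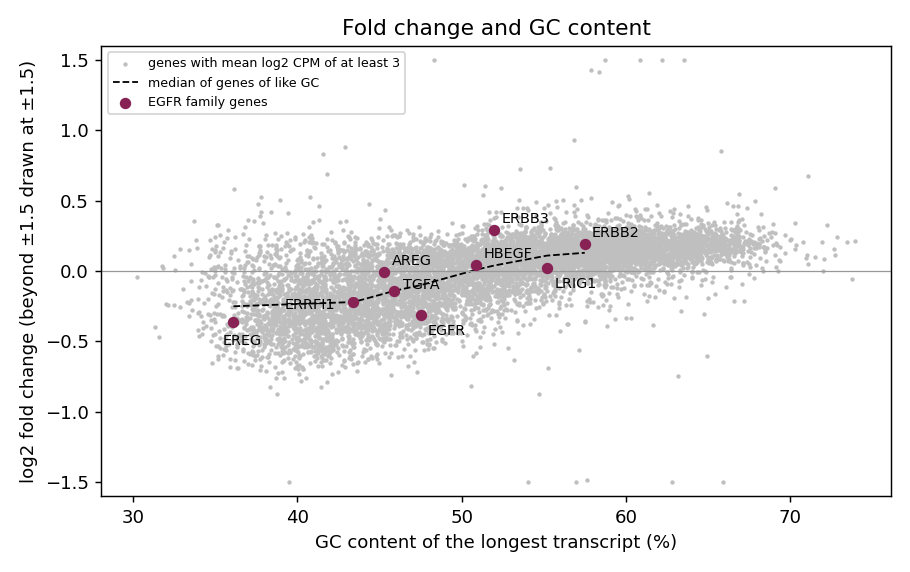
Log2 fold change of erianin over DMSO against the GC content of the longest transcript. Grey points are genes whose mean log2 CPM was 3 or more, the dashed line joins the medians of genes within 2 percentage points of each family gene, and dark points are the 9 family genes. EREG and ERRFI1 sit at the low-GC end, with log2 fold changes of -0.36 and -0.22, and ERBB2 at the high-GC end, with 0.19.

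A list of 36 other genes of the pathway was drawn up, of which ERBB4, EPGN and NRG3 were not analysed here, and 32 of the other 33 passed the filter of the same fit. Of the 32, 0 passed in either direction by edgeR's quasi-likelihood test, DESeq2 or limma-voom, against 0.0117% of all genes higher and 0.0293% lower, and 6 had an unadjusted p under 0.05, all lower (0 higher), against 5.89% lower and 2.21% higher over all genes. Their median log2 fold change was -0.17, against -0.01 over all genes tested, and 23 of the 32 lay below 0, against 51.3% of all genes. With the GC and length trend removed the median was -0.06. Among the other ligands, NRG2, a neuregulin, was the most abundant at 0.94 to 1.5 FPKM. NRG1, a neuregulin that binds ERBB3, fell below the filter at no more than 0.01 FPKM.

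The most abundant gene of each of 4 further roles in the list is given here, and 0 of these 4 passed. Among adaptors and first effectors, SHC1, the adaptor that links phosphorylated receptors to GRB2, had 221.2 to 252.7 FPKM and a log2 fold change of 0.20 ± 0.11 (SE). Among the other inhibitors and anchors, CDC37, an HSP90 cochaperone for kinases, was at 183.7 to 188.9 FPKM and 0.11 ± 0.09. For receptor turnover, STUB1, an E3 ligase that acts with chaperones on ERBB2, was at 133.1 to 156.5 FPKM and 0.23 ± 0.12. For shedding and trafficking, RHBDF2, which carries the sheddase ADAM17 to the cell surface, was at 14.69 to 18.05 FPKM and 0.23 ± 0.11.

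The 6 genes with the smallest p were all lower in erianin without passing (edgeR's quasi-likelihood test, adjusted p = 0.575 for each). SOS1 and SOS2, the exchange factors that load RAS with GTP, had log2 fold changes of -0.68 ± 0.22 and -0.79 ± 0.29 (SE). The CPM of SOS1 was 6.83 and 7.53 with DMSO and 5.04 and 3.905 with erianin. ERBIN, which binds the tail of ERBB2, was at -0.63 ± 0.21, PTPN11, the SHP2 phosphatase, at -0.53 ± 0.21, ADAM10, a sheddase of EGFR ligands, at -0.59 ± 0.24, and USP8, which removes ubiquitin from endosomal receptors, at -0.49 ± 0.20. In each of the 6 the groups did not overlap and erianin replicate 2 was the lowest library, against 24.4% and 37.3% of all genes, but choosing genes by a small p favours groups that lie apart. Their GC content ran from 35.9% in ERBIN to 42.2% in PTPN11, and with the trend removed their log2 fold changes lay between -0.53 for SOS2 and -0.13 for USP8. Without erianin replicate 1, 11 of the 32 genes passed, 9 lower and 2 higher (SHC1 and STUB1), where 10.2% of all genes passed as lower and 7.3% as higher. Without erianin replicate 2, 0 did, against 0.132% of all genes.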

How the data were processed

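RNA sequencing of 4 SW1990 libraries was used, 2 per group, with groups and replicate numbers from the sample titles. The authors' estimated counts are raw whole numbers in 107429 rows for 25798 gene IDs. The deposited FPKM values have the same rows, per the file headers. GRCh38, featureCounts 2.0.1, StringTie 2.2.1, STAR and fastp are listed, without roles, per the submitters' processing notes. The sources used here give no annotation, strandedness or rule for shared reads, so reads may be divided unevenly between rows and overlapping genes. The plan had assumed plain counts per gene, and the rows were summed.

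Counts were tested with edgeR 4.0.16 (R 4.3.3): TMM factors, filterByExpr (minimum count 10), quasi-likelihood F test, group only, Benjamini-Hochberg adjustment over 17090 genes, threshold 0.05. Standard errors are the log2 fold change over the square root of F. Alternatives used DESeq2 1.42.0, limma 3.58.1, FPKM with a pseudocount of 0.1 or 1, and natural splines (5 degrees of freedom) on GC content and length from GENCODE 29 (GRCh38, 1-based coordinates). The edgeR step was tested on simulated data. Promoter sequences came from RefSeq, matched by symbol. All 10 genes are named. Pathway genes are named by highest FPKM in a role or by the 6 smallest p, and ADAM17, NRG1 and those named for overlaps by their part in a result. The genes and lists were chosen with earlier results of these data known.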

Additional observations from a re-analysis of the deposited data

How the results depend on the processing

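The 9 genes tested were recomputed under 17 alternatives. Of 153 log2 fold changes, 17 changed sign at 2 decimals, 3 passed and 133 did neither. Values that rounded to 0.0 are among the 133 and show no sign. They were AREG with DESeq2 size factors, with upper-quartile factors and with the highest row, and LRIG1 with the trend removed and the replicate block. The sign changed with library totals alone (HBEGF -0.05, LRIG1 -0.08), with FPKM at a pseudocount of 0.1 (HBEGF -0.07, LRIG1 -0.06) or 1 (HBEGF -0.06, LRIG1 -0.03), with the GC and length trend removed (AREG 0.07, TGFA 0.04, LRIG1 -0.01), and with the trend removed together with a replicate block (AREG 0.06, TGFA 0.04). Leaving out 1 library in turn gave -0.20 to 0.15 for AREG, 0.08 of these without DMSO replicate 1, -0.07 to 0.14 for HBEGF, -0.12 to 0.17 for LRIG1 (-0.01 without erianin replicate 1), -0.51 to 0.01 for ERRFI1, -0.52 to -0.13 for EGFR and -0.75 to -0.07 for EREG. EGFR, EREG and ERRFI1 passed only without erianin replicate 1. The cause was not tested. The mean FPKM of ERBB2 was 13.2 from the sum and 8.58 from the highest row, and that of ERBB3 1.19 and 0.805.

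The count of genes passing among all genes, 7 in the reported fit, was 2 with library totals alone, which shifted the median of all genes from -0.01 to -0.11, 24 with DESeq2, 0 with limma-voom, 2 with FPKM at either pseudocount, 0 with the highest row, and 24 to 3166 with 1 library left out. The count among the family genes was 0 to 3 and among the pathway genes 0 to 11 with 1 library left out. The median of the pathway list, -0.17, was -0.27 with library totals alone, -0.06 with the trend removed and -0.05 with the trend removed and the replicate block.

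Of the 17090 genes tested, the replicate number as a block gave 334 in all, 66 higher and 268 lower. Among these were 0 of the 9 family genes and 4 of the 32 pathway genes tested (ADAM10, ERBIN, LRIG3 and PTPN11, all lower). With the trend removed as well, the block gave 14 of 17090 genes, 0 of them in the family and 0 in the pathway list. Same-numbered libraries deviated from their group means with a correlation of 0.0517 across genes. The labels do not say whether they were paired, and with 2 libraries per group this correlation cannot decide it. ERBB3, with 117 to 176 counts per library, and LRIG1, with 304 to 375, are the family genes most limited by depth among those tested.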
